A study of Mus musculus with 27 samples.

Results

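A stretch of mouse chromosome 10 that runs from Hs3st5 to Gtf3c6 was followed gene by gene through 27 RNA-sequencing libraries. In GRCm38 it extends from position 36506590 to position 40257712, a length of 3.751 Mb. Its 10 listed genes are Hs3st5, Hdac2, Marcks, Lama4, Tube1, Fyn, Traf3ip2, Rev3l, Rpf2 and Gtf3c6, out of 52636 gene identifiers in the count tables. They were matched by Ensembl identifier and symbol, and they were chosen by their measured differences between genotypes and between libraries in earlier results of these counts. Their genotype and sex differences are therefore given here as a description. Where the text counts listed genes among those called by a test in these comparisons, the choice of the list fixed much of that count, and nothing is read from it. The study compared wild-type mice with Igf2enh-/- mice, which lack an intergenic enhancer of about 4.9 kb between H19 and Igf2 on chromosome 7, in frontal cortex and striatum. The Igf2enh-/- mice were homozygous for the deletion, were made by gene targeting on the 129S1 background, and kept a single loxP site after an Hprt-CRE transgene had removed the selection cassette. All mice were adults of about 2.5 months. Frontal cortex gave 3 libraries each from wild-type females, wild-type males, Igf2enh-/- females and Igf2enh-/- males. Striatum gave 3 libraries from wild-type females and 4 from each of the other groups. The labels number the libraries from 1 to 27 and do not say which libraries of the 2 regions came from the same mouse or which mice were littermates.

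Neighbouring genes on a chromosome usually have separate promoters and separate regulation. Their transcripts can still move together when the stretch that holds them is present in more or fewer copies, since the number of templates then changes for every gene on it. The listed genes have unrelated roles. Hdac2 encodes a class I histone deacetylase that has been studied in memory formation, Rev3l the catalytic subunit of DNA polymerase zeta, Gtf3c6 a subunit of the RNA polymerase III factor TFIIIC, and Rpf2 a factor for assembly of the large ribosomal subunit. Fyn encodes a Src family kinase that acts in synapses and in myelination, and Marcks a protein kinase C substrate that binds actin and membrane lipids. Lama4 encodes the laminin alpha 4 chain of vascular basement membranes, Hs3st5 a heparan sulfate sulfotransferase, Tube1 epsilon-tubulin of centrioles, and Traf3ip2 the adaptor Act1 of the interleukin-17 receptor. RefSeq annotates 46 genes in the stretch, of which 17 are protein coding, and 20 of the 46 could be matched to a row of the count tables.

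Promoter sequences of 300 bases, from 250 bases before to 50 bases after an annotated start, are shown for the outermost genes of the stretch, for Hdac2, and for Amd1, the first tested gene past the Gtf3c6 end, to let the start regions of genes inside and outside be compared. RefSeq (GRCm38.p6) had entries for 6 of the 10 listed genes, and the sequences run 5′ to 3′ along the strand of each gene. Capitals mark matches to the GC box letters GGGCGG or CCGCCC, the CCAAT box letters CCAAT or ATTGG, and the TATA box letters TATAAA or TTTATA, each searched on both strands. The Hs3st5 window lies on the plus strand at chr10:36506557-36506856, the Hdac2 window on the plus strand at chr10:36974294-36974593, the Gtf3c6 window on the minus strand at chr10:40257663-40257962, which is the outer of 2 annotated starts, and the Amd1 window on the minus strand at chr10:40302139-40302438.
Hs3st5: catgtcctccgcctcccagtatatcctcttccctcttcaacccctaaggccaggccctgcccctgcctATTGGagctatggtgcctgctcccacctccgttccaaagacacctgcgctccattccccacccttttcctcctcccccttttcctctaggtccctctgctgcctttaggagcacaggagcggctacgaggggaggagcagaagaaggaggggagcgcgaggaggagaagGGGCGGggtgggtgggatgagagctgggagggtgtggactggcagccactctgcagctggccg
Hdac2: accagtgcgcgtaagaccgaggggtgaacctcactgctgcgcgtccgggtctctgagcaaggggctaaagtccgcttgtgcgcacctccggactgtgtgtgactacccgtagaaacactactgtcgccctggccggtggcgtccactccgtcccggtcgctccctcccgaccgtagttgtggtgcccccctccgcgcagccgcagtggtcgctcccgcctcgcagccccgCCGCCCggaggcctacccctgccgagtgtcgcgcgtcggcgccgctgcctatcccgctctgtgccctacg
Gtf3c6: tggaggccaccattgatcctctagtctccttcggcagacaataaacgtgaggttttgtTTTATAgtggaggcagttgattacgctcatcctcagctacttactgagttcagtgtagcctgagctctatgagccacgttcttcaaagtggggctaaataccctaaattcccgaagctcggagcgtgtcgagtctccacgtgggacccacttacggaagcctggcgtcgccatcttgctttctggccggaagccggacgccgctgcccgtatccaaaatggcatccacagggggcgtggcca
Amd1: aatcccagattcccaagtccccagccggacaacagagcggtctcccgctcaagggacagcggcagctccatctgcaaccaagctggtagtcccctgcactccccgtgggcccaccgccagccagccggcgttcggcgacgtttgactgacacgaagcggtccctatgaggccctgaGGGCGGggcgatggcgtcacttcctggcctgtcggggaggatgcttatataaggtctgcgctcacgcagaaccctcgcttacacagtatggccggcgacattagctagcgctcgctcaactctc
The Hs3st5 window held 1 GC box and 1 CCAAT box, the Hdac2 and Amd1 windows held 1 GC box each, and this Gtf3c6 window held 1 match to the TATA letters. The window of the inner Gtf3c6 start, not shown, held 1 GC box and no TATA letters. Only exact matches were counted, at any distance from the start. Of 32851 mouse promoter windows of the same length, 35.7% held a GC box, 37.4% a CCAAT box and 13.6% the TATA letters. The number of CG dinucleotides was 36 in the Hdac2 window, 24 in the Amd1 window, 18 in the Gtf3c6 window shown and 9 in the Hs3st5 window, against a median of 7 over all windows.

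Library totals ran from 23686945 to 33926904 counts. Xist and 4 Y-linked genes matched the labelled sex in all 27 libraries. The deleted enhancer has no row in the count tables, and Igf2, the gene beside it, was at 122 ± 27.4 CPM in Igf2enh-/- frontal cortex (SD, n = 6) against 72.1 ± 18.8 CPM in wild-type (SD, n = 6; edgeR quasi-likelihood test, log2 fold change 0.77, SE 0.13, adjusted p = 0.0286). In striatum it was at 79.2 ± 74.8 CPM (SD, n = 8) against 38.5 ± 3.85 CPM (SD, n = 7), a difference that did not pass this test (edgeR adjusted p = 0.387). The striatal levels did not overlap, at 46.5 to 264 CPM in Igf2enh-/- mice with a median of 52.0 CPM and at 34.3 to 44.5 CPM in wild-type. Markers of the labelled regions, written as lists, separated them: the 5 striatal markers summed to between 77.8 and 146 CPM in frontal cortex and between 2062 and 5636 CPM in striatum. Some striatal libraries stood apart. Library 20, a wild-type male, had the lowest striatal marker sum and the highest sum of the 4 frontal cortex markers (944 CPM, striatal median 249 CPM), and its mean correlation with the other striatal libraries was the lowest at 0.976. Library 15, an Igf2enh-/- female, held 3359 CPM of 6 choroid plexus markers against a striatal median of 45.6 CPM. No 2 libraries of a group had counts that agreed within sampling noise, the smallest chi-square per degree of freedom being 2.2 over genes.

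In frontal cortex, the listed genes were higher in each of the 3 wild-type male libraries than in nearly every other library. Hdac2 was at 134, 124 and 129.5 CPM, the count scaled to library size after TMM normalization, in wild-type males 8, 10 and 12. It was at 82.2, 76.7 and 82.4 CPM in wild-type females, at 80.8, 86.6 and 87.7 CPM in Igf2enh-/- females and at 83.1, 87.1 and 85.6 CPM in Igf2enh-/- males. The lowest wild-type male thus lay above all 9 other libraries, with no overlap. Marcks was at 386, 366 and 376 CPM in wild-type males and between 235 and 268 CPM in the other 9 libraries. Fyn was at 181, 176 and 178 CPM in wild-type males and between 117 and 128 CPM elsewhere. These 3 genes had the most counts of the list, from 2041 to 10523 per library, and none of them overlapped between wild-type males and the rest.

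The less abundant genes followed the same order of libraries with wider scatter. Rev3l was at 49.6, 47.8 and 48.1 CPM in the wild-type males and between 25.4 and 32.0 CPM in the other libraries. Gtf3c6 was at 26.3, 26.0 and 28.1 CPM in wild-type males and between 17.4 and 19.8 CPM elsewhere. Rpf2 was at 21.0, 18.1 and 22.4 CPM in wild-type males and between 13.7 and 16.3 CPM elsewhere. Again the wild-type males lay above the rest for each of these genes. Hs3st5 was at 10.0, 7.90 and 8.67 CPM in wild-type males and between 4.77 and 7.24 CPM elsewhere, the highest of these being an Igf2enh-/- female. Tube1 was the exception: library 12 had 2.85 CPM, below wild-type female library 4 with 3.05 CPM, while the other wild-type males had 3.97 and 4.18 CPM. Wild-type males lay above every other library for 8 of the 9 listed genes that passed the filter of at least 1 CPM in every library, against 1.56% of all 13936 genes tested in frontal cortex. The list was drawn from these differences, so nothing is read from that count.

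Each gene was next expressed as its log2(CPM + 0.5) minus its own median over the libraries of the region, and the median of the 9 tested genes was taken as the level of the segment in a library. The segment stood at 0.524, 0.510 and 0.548 in frontal cortex of wild-type males 8, 10 and 12, which is 1.44-fold, 1.42-fold and 1.46-fold the usual level. It stood between -0.091 and 0.022 in the 9 other libraries, and the group means were 0.527 ± 0.019 in wild-type males, -0.011 ± 0.022 in wild-type females, -0.056 ± 0.031 in Igf2enh-/- females and -0.029 ± 0.044 in Igf2enh-/- males (SD, n = 3 each). The listed genes were chosen by differences of this kind, so the distance between these means is a description. All 9 genes were above their median in each wild-type male library, and 9, 8 and 7 of them were above 0.292, the middle of the way to 0.585. The latter value, the log2 of the ratio of 3 copies to 2, is given as a scale only: the copy number of the DNA was not measured in these files, and its part in the result was not tested. Over all tested genes, 1.33%, 1.69% and 1.47% exceeded 0.292 in these libraries, and among 615 other tested genes of chromosome 10 the shares were 1.95%, 1.63% and 1.30%. The median deviation of those other chromosome 10 genes lay between -0.005 and 0.008 in all frontal cortex libraries.

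In striatum, 3 of the 4 wild-type males stood high and the fourth did not. The segment level was 0.502, 0.512 and 0.533 in libraries 20, 22 and 24, and -0.017 in library 26. The 11 libraries of the other groups lay between -0.104 and 0.013, so that library 26 fell within their range. The wild-type male group averaged 0.383 ± 0.267 (SD, n = 4), against -0.001 ± 0.015 in wild-type females (SD, n = 3), -0.024 ± 0.022 in Igf2enh-/- females and -0.042 ± 0.045 in Igf2enh-/- males (SD, n = 4 each). Folds over the usual level were 1.42, 1.43 and 1.45 in libraries 20, 22 and 24 and 0.988 in library 26. Thus the step in the 3 high striatal libraries had nearly the size of that in frontal cortex, while the group spread in striatum came from library 26.

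Gtf3c6 showed the striatal pattern with least scatter, at 28.6, 26.7 and 27.8 CPM in libraries 20, 22 and 24, at 18.8 CPM in library 26 and between 18.4 and 20.7 CPM in the 11 other libraries. Fyn was at 180.3, 162 and 158 CPM in the first 3 wild-type males, at 109.5 CPM in library 26 and between 103 and 112 CPM elsewhere. Rpf2 was at 20.7, 21.7 and 22.2 CPM, then 14.2 CPM in library 26, and between 13.2 and 16.1 CPM elsewhere. In each of these genes library 26 lay among the other groups. Hdac2 was at 129, 161 and 159 CPM, then 103 CPM in library 26, and between 97.7 and 108 CPM elsewhere. Rev3l was at 49.8, 54.0 and 57.3 CPM, then 44.4 CPM in library 26, and between 30.4 and 43.7 CPM elsewhere. Rev3l was the single listed gene for which all 4 wild-type males lay above the other 11 libraries, against 0.303% of 13875 genes tested in striatum, and library 26 exceeded the highest of the others by less than 1 CPM. The 3 highest libraries were all wild-type males for 8 of 9 genes in striatum (background 1.85%) and for 8 of 9 in frontal cortex (background 1.56%).

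**Figure D1:**
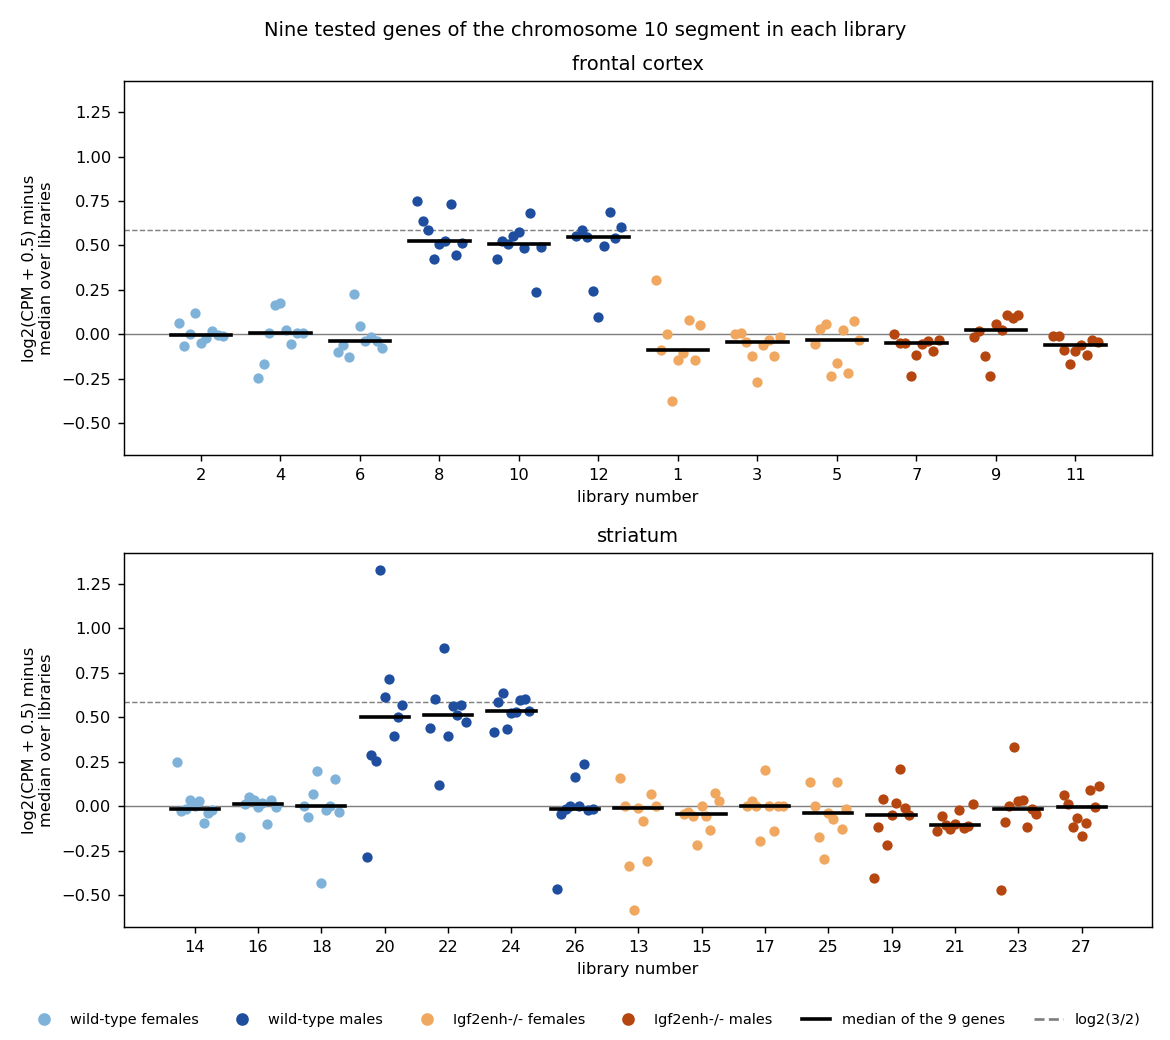
Each point is 1 of the 9 tested genes, as log2(CPM + 0.5) minus its median over the libraries of the region (vertical axis), in each library (horizontal axis, ordered by group); black bars are their median and the dashed line is 0.585. The bars of libraries 8, 10 and 12 in frontal cortex and of 20, 22 and 24 in striatum lie between 0.502 and 0.548, and those of all other libraries, wild-type male 26 included, lie between -0.104 and 0.022.

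Depth and the recorded RNA concentration are given beside these levels. Wild-type males 8, 10 and 12 had 27367834, 26141526 and 27598498 counts, within the range of 24929068 to 30979248 in frontal cortex, and striatal libraries 20, 22, 24 and 26 had 24803705, 29444140, 28842234 and 33926904. Library 26 was the deepest of the striatal set. Their RNA was recorded at 342.2, 258.1 and 424.2 ng/µl in frontal cortex and at 305.1, 61.2, 238.1 and 466.4 ng/µl in striatum, the value of library 22 being the lowest of the region. The share of all tested genes above 0.292 was 16.9% in library 20, 4.98% in library 22, 2.54% in library 24 and 8.49% in library 26. Broad differences were therefore largest in library 20, and library 24, with few genes displaced elsewhere, had all 9 listed genes between 0.420 and 0.639.

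Apart from the common step, the listed genes varied about as much as all tested genes in frontal cortex, by median SD. In striatum they varied slightly more. The SD of a gene over the 12 frontal cortex libraries had a median of 0.273 over the 9 genes, and fell to 0.103 once the median of the other 8 genes in the same library had been subtracted. The median SD over all tested genes of the region was 0.101. In striatum the median went from 0.264 to 0.158, against 0.135 over all tested genes. Subtraction lowered the SD for 9 of 9 genes in frontal cortex and for 8 of 9 in striatum, where it rose slightly for Hs3st5, from 0.292 to 0.299. For comparison, subtracting the segment level lowered the SD of 1.25% of all tested genes in frontal cortex and of 2.85% in striatum. The list was chosen by differences between these libraries, so part of the fall in SD follows from that choice. Fyn came closest to the others, with a remaining SD of 0.035 in frontal cortex, and Gtf3c6, Marcks and Hdac2 followed with 0.058, 0.074 and 0.078. In striatum the smallest remaining SDs were those of Rpf2 and Gtf3c6, both 0.067.

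Wide departures from the other listed genes were seen for Lama4, Hs3st5, Tube1 and, in striatum, Marcks. The widest of frontal cortex was that of Tube1 in library 12, which lay -0.453 from the median of the others, and Tube1 lay -0.434 from it in striatal library 18. In library 20 Lama4 stood at 1.33 and Hs3st5 at -0.287, on either side of a segment level of 0.502. In library 22 Lama4 stood at 0.890 and Marcks at 0.118, against a level of 0.512. In library 24 Lama4 stood at 0.433, Hs3st5 at 0.420 and Marcks at 0.639, closer to the level of 0.533. Library 20 thus carried most of the scatter, with an SD over the 9 genes of 0.431 against 0.053 to 0.239 in the other striatal libraries. Hs3st5 was lowest in libraries 23, 26, 19 and 20, at -0.471, -0.465, -0.402 and -0.287, and these had the 4 lowest sums of the striatal markers, at 3078, 3014, 2762 and 2062 CPM against 3905 to 5636 CPM in the others. The marker sums of oligodendrocytes were 9536 and 8353 CPM in libraries 20 and 22 against a striatal median of 5238 CPM, and those of pericytes and smooth muscle 216 and 216 CPM against 186 CPM. Whether these cell types had a part in the departures was not tested, and in bulk tissue fewer cells of a type and less RNA per cell cannot be told apart.

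**Figure D2:**
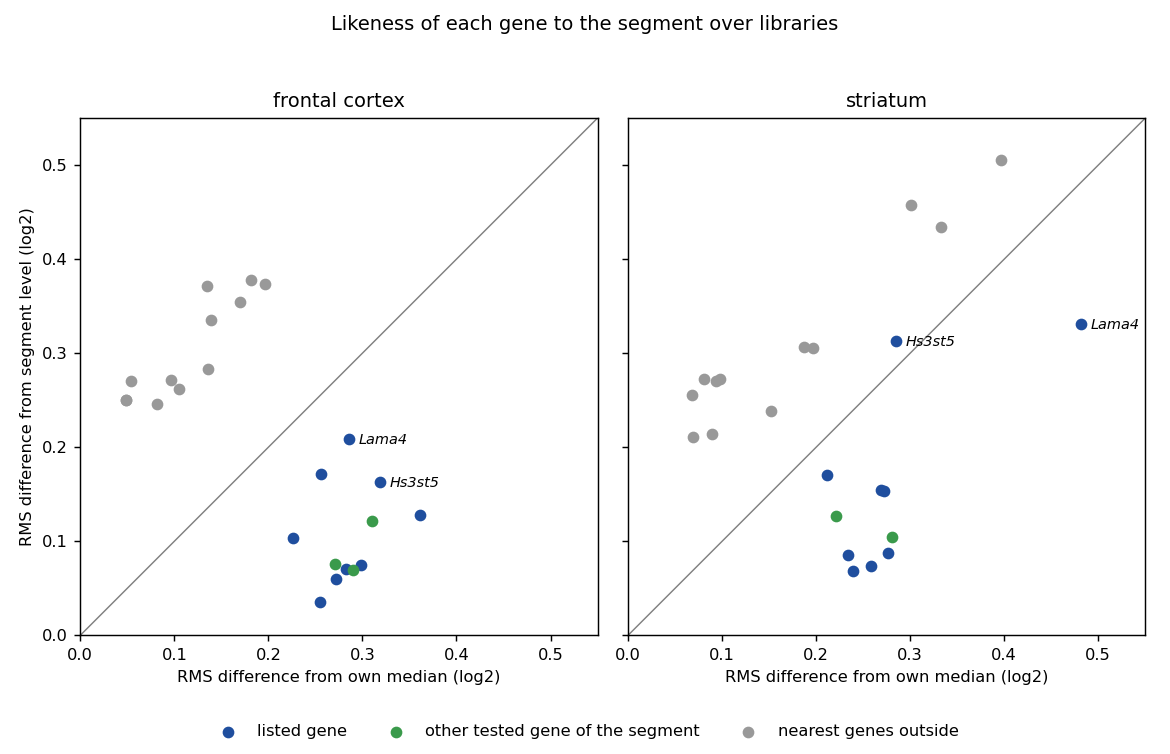
For each gene, the root mean square (RMS) over libraries of its difference from its own median (horizontal axis, log2) is set against that of its difference from the segment level (vertical axis, log2); for a listed gene the level is the median of the other listed genes. Genes under the diagonal line are nearer to the segment than to a flat course: all 9 listed genes in frontal cortex, 8 of 9 in striatum with Hs3st5 just above the line, and every other tested gene of the segment, whereas all of the nearest genes outside lie above it.

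The other genes of the stretch were then examined, since they had no place in the list. Of these, Fam229b, the lncRNA E130307A14Rik and Slc16a10, an aromatic amino acid transporter, passed the filter in frontal cortex, and Fam229b and E130307A14Rik in striatum. E130307A14Rik stood at 0.543, 0.578 and 0.546 in frontal cortex of wild-type males 8, 10 and 12 and between -0.169 and 0.047 in the other 9 libraries. Fam229b, which lies between Lama4 and Tube1, stood at 0.457, 0.443 and 0.633, and between -0.185 and 0.135 elsewhere. Slc16a10 stood at 0.526, 0.443 and 0.670, and between -0.412 and 0.109 elsewhere. No wild-type male library overlapped the rest for any of the 3 genes. Wild-type males lay above every other library for 1.56% of all 13936 genes tested. Between the sexes in wild-type mice, E130307A14Rik was higher in males by 0.55 (log2, SE 0.059, edgeR quasi-likelihood adjusted p = 0.000806) and Fam229b by 0.50 (SE 0.081, adjusted p = 0.0304), and Slc16a10, at 0.63 (SE 0.14, adjusted p = 0.160), did not pass. This comparison called 21 of 13936 genes (0.151%). E130307A14Rik shares bases with Traf3ip2 and with the start of Rev3l, and the strand setting of the counting is not given in the sources used here, so reads of these genes cannot be told apart with certainty.

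In striatum E130307A14Rik stood at 0.565, 0.475 and 0.713 in libraries 20, 22 and 24 and at 0.124 in library 26, with the other groups between -0.180 and 0.122. Fam229b stood at 0.264, 0.328 and 0.662, then 0.000 in library 26, with the other groups between -0.181 and 0.111. Both therefore lay above the other groups in libraries 20, 22 and 24. Fam229b rose less than the segment in libraries 20 and 22, where the segment level was 0.502 and 0.512. In library 26 E130307A14Rik lay just above the other groups and Fam229b within them. Their sex difference in wild-type striatum did not pass the edgeR test, which called none of 13875 genes there although 992 had an unadjusted p under 0.05.

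Past the outermost listed genes the step was not seen. Amd1, an enzyme of polyamine synthesis whose near end lies 29.7 kb beyond Gtf3c6, stood at 0.003, 0.092 and 0.020 in the 3 wild-type males of frontal cortex and between -0.099 and 0.062 in the other libraries. In striatum it stood at -0.001, 0.166, 0.036 and 0.000 in wild-type males, with the other groups between -0.090 and 0.130. Its sex difference in wild-type mice was 0.067 in frontal cortex (edgeR adjusted p = 0.686) and 0.090 in striatum (adjusted p = 0.760). The next tested genes on that side, Cdk19, Ddo, Cdc40 and Wasf1, had wild-type males between -0.135 and 0.119 in frontal cortex. On the Hs3st5 side the nearest tested gene in frontal cortex was Amd2, 794.7 kb away and at a median of 1.99 CPM, with wild-type males at -0.394, 0.046 and -0.044. In striatum the nearest was Nt5dc1, 2088 kb away. The edge on that side is thus known only to within that gap. Of the 6 nearest tested genes on each side, none was nearer to the segment than to its own median in either region, against 3 of 3 and 2 of 2 other tested genes inside. The list that sets both edges was chosen by these differences, and a gene with the step past them could have been listed. The lack of the step outside is therefore a description.

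**Figure D3:**
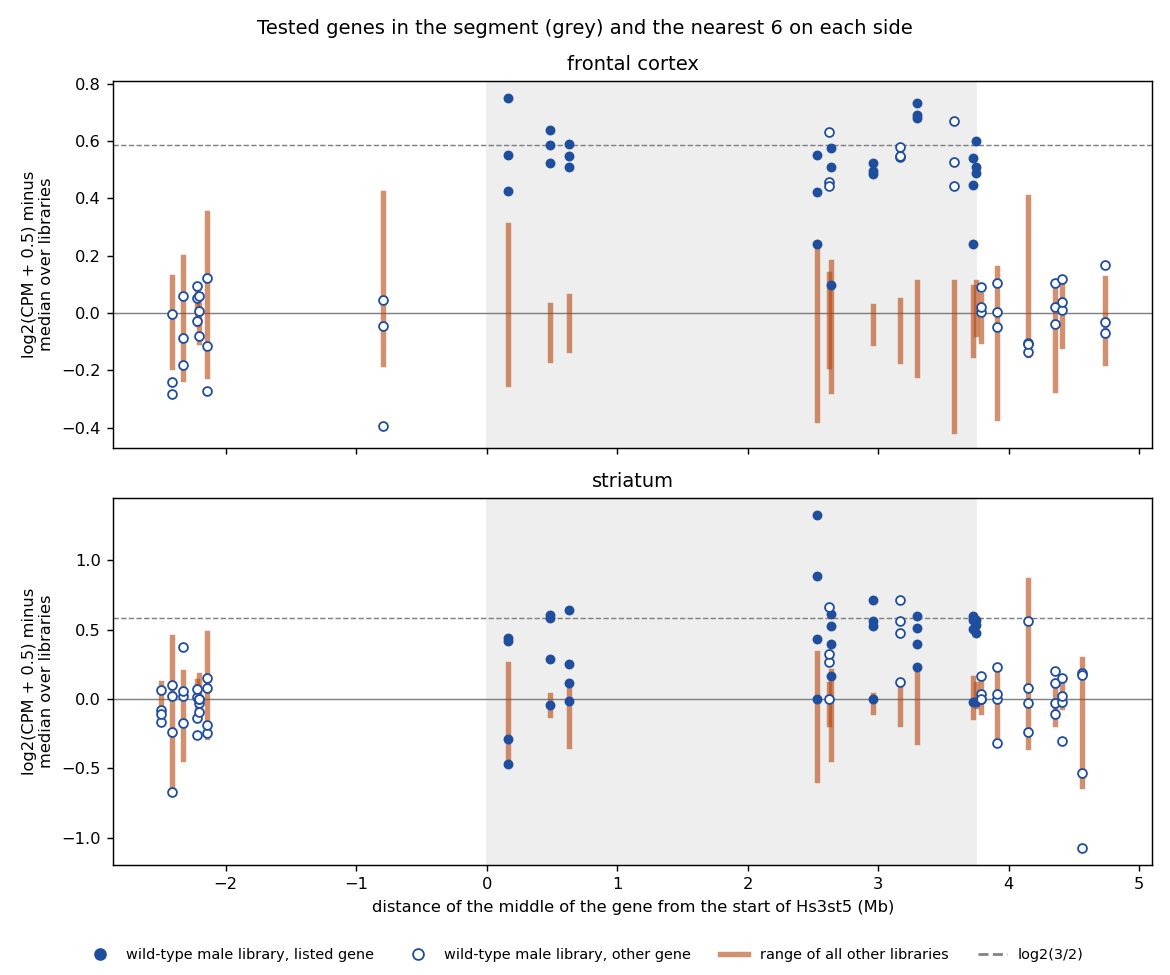
Tested genes are placed by the distance of their middle from the start of Hs3st5 (horizontal axis, Mb), with each wild-type male library as a point and the range of all other libraries as a bar (vertical axis, log2(CPM + 0.5) minus the median over libraries); filled points are the listed genes, open points the others, and grey marks the segment. In frontal cortex the points inside the grey area lie between 0.097 and 0.751, and those of Amd1, just past its right edge, between 0.003 and 0.092.

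Across the whole table, 88 of 13936 genes (0.631%) in frontal cortex and 370 of 13875 (2.67%) in striatum were nearer to the segment level than to their own median. Among genes outside the list, the smallest RMS differences over the 12 frontal cortex libraries belonged to E130307A14Rik (0.069), Fam229b (0.076), a gene known in these tables only by its identifier ENSMUSG00000096687 (0.107) and Slc16a10 (0.121). The same identifier came first over the 15 striatal libraries (0.085), followed by E130307A14Rik (0.105) and Fam229b (0.127). It has neither symbol nor position in the annotation tables used here. The other genes among the nearest 10 were Pmaip1, Pik3c2a, Klf15, Ankrd33b, Fam78a and Ikzf1 in frontal cortex, with differences of 0.146 to 0.164, and Nkd1, Errfi1, Polr3e, Neu4, Rgcc, Zfp276 and Dclre1b in striatum, with 0.132 to 0.154. None of these lies on chromosome 10, and for Ankrd33b and Ikzf1 the difference from their own median was the smaller one.

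The genotype comparison takes these libraries into the wild-type side. The segment level averaged 0.258 ± 0.296 in wild-type (SD, n = 6) and -0.042 ± 0.038 in Igf2enh-/- frontal cortex (SD, n = 6), a difference of -0.300. In striatum it averaged 0.218 ± 0.279 (SD, n = 7) and -0.033 ± 0.034 (SD, n = 8), a difference of -0.251. The spread in wild-type was several times that in Igf2enh-/- mice in both regions, the wild-type side holding females near 0 and, but for library 26, males near 0.5. All 9 tested genes were lower in Igf2enh-/- mice in each region, by a median of -0.29 (log2 fold change, range -0.54 to -0.24) in frontal cortex and -0.25 (range -0.64 to -0.16) in striatum, whereas 49.6% and 49.8% of all tested genes were lower. The median log2 fold change of all tested genes was 0.0007 and 0.0004.

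The edgeR test with sex as a term called, in frontal cortex, 53 of 13936 genes (0.380%), among them Lama4 alone of the listed genes. The likelihood ratio test called 232 of the 13936 genes, 4 of them listed, and DESeq2 called 242, 3 of them listed. The fit without a filter called 459, of which 7 were listed. It also tested genes under the filter, so 459 is not a share of the 13936 genes. Its 7 listed genes are therefore not set against the other counts. In striatum the edgeR quasi-likelihood test called 5 of 13875 (0.036%) and none of the list. An unadjusted p under 0.05 was found for 7 listed genes and for 1395 of all 13875 genes tested. The likelihood ratio test and DESeq2 called none of the list there either. Among the other tested genes of the stretch, the genotype difference of E130307A14Rik was -0.39 in frontal cortex (SE 0.079, edgeR adjusted p = 0.0514) and -0.39 in striatum (SE 0.088, adjusted p = 0.143). That of Fam229b was -0.33 (SE 0.094, adjusted p = 0.144) and -0.19 (SE 0.10, adjusted p = 0.559), and that of Slc16a10 -0.42 (SE 0.13, adjusted p = 0.172). None of these passed.

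Within sexes, the difference was found almost entirely in males. The 9 genes of frontal cortex had a median log2 fold change between genotypes of -0.60 in males (range -0.72 to -0.43) and of -0.03 in females (range -0.43 to 0.20), estimated from 1 model of the 4 groups. Rev3l was at -0.72 (SE 0.073) in males and -0.03 (SE 0.075) in females. Marcks was at -0.64 (SE 0.047) in males and 0.04 (SE 0.047) in females. Lama4 differed from these, at -0.65 (SE 0.092) in males and -0.43 (SE 0.095) in females. The test within males called 20 genes (0.144%), of which 6 were listed (Hdac2, Marcks, Lama4, Fyn, Rev3l and Gtf3c6) and E130307A14Rik and Fam229b were other genes of the stretch. In females it called 1 gene (0.00718%), not on the list, as it did in striatum (0.00721%). The interaction of genotype and sex called 3 genes (0.0215%), which were Hdac2, Marcks and Fyn, at -0.68 (SE 0.069), -0.68 (SE 0.067) and -0.50 (SE 0.062). As the list was chosen by such differences in these counts, these calls describe the listed genes and do not support the choice.

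Between the sexes the same libraries gave the mirror image in wild-type mice. The 9 genes were higher in wild-type males than wild-type females of frontal cortex by a median of 0.57 (range 0.25 to 0.73), with 6 of them among the 21 called genes. In Igf2enh-/- mice their median sex difference was 0.02 (range -0.11 to 0.18), and 1 gene (0.00718%), not on the list, was called. In striatum the median was 0.44 (range 0.05 to 0.69) in wild-type and 0.01 (range -0.30 to 0.34) in Igf2enh-/- mice, where 1 gene outside the list (0.00721%) was called. Taken over both genotypes, the sex term called 6 genes in frontal cortex (0.0431%) and 6 in striatum (0.0432%), none of them listed. An unadjusted p under 0.05 was found for 8 and 4 listed genes, and for 1054 of all 13936 and 1496 of all 13875 genes tested. Neither the likelihood ratio test nor DESeq2 called a listed gene for this term. Without a filter on low counts the sex term called 185 genes in frontal cortex, 5 of them listed. In striatum it called 14, none of them listed. Those fits also tested genes under the filter, so 185 and 14 are not shares of the 13936 and 13875 genes. These comparisons share wild-type males, or Igf2enh-/- males, with the genotype comparison within males. They are therefore not separate evidence of it.

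Striatal genotype differences had the same order with larger errors. The median was -0.44 in males (range -0.79 to -0.31) and -0.04 in females (range -0.45 to 0.21). Fyn was at -0.49 (SE 0.11) in males and -0.06 (SE 0.12) in females, against -0.53 (SE 0.044) and -0.04 (SE 0.044) in frontal cortex. The test in males called 5 genes (0.036%) and the interaction none (0%), with none of the list in either, although 355 genes had an unadjusted p under 0.05 for the interaction, the likelihood ratio test called 1 and DESeq2 2. Library 26 widened this spread: without it the interaction called 2 genes, both listed, and its median over the list was -0.55 in place of -0.43. Without library 20 the genotype difference had a median of -0.23, and Lama4, the listed gene with the largest difference, went from -0.64 to -0.48.

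**Figure D4:**
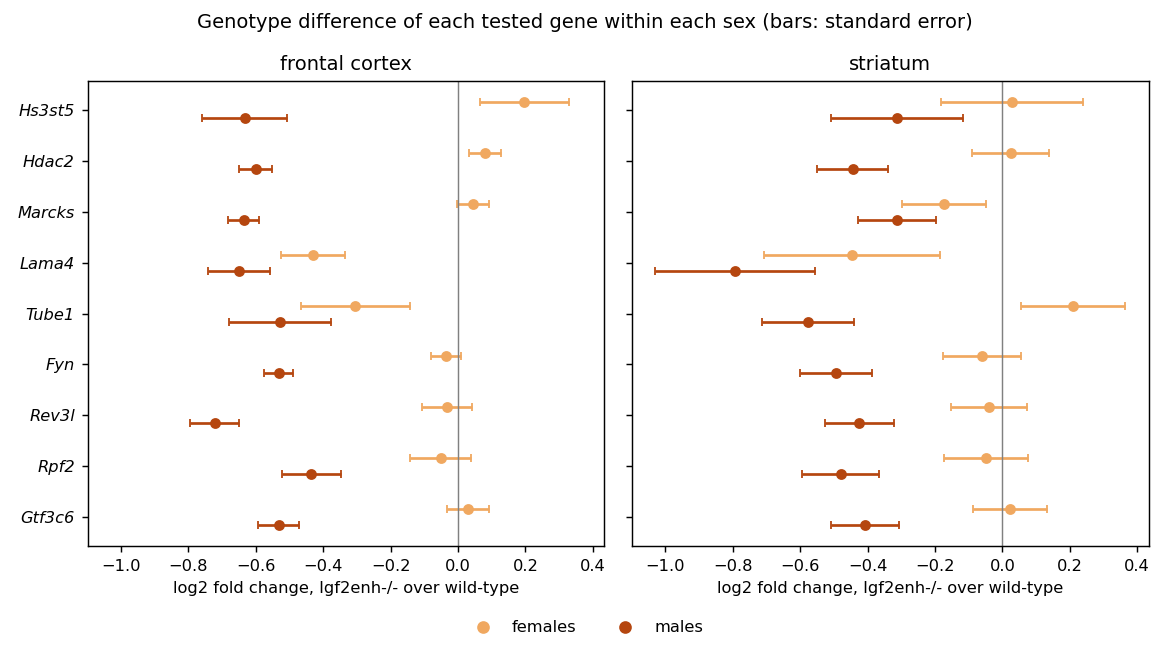
Points are the log2 fold change of Igf2enh-/- over wild-type mice for each tested gene (horizontal axis), estimated separately in females and males from 1 model per region, with bars of 1 standard error. The male estimates of frontal cortex lie between -0.72 and -0.43 for every gene. The female ones lie between -0.05 and 0.08 for all but Lama4 (-0.43), Tube1 (-0.31) and Hs3st5 (0.20). In striatum the male estimates lie between -0.79 and -0.31.

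The share of the genotype difference that each gene had in common with the rest of the stretch was then taken out. The median of the other 8 genes in the same library was subtracted from each gene, and the genotype means were compared again. The differences of the 9 genes in frontal cortex went from a median of -0.284 (range -0.516 to -0.204) to a median of 0.012 (range -0.233 to 0.094), and 8 of 9 came within 0.1 of 0. In striatum they went from -0.250 (range -0.589 to -0.115) to 0.006 (range -0.353 to 0.155), with 7 of 9 within 0.1. Marcks went from -0.296 to 0.002 in frontal cortex and from -0.250 to 0.006 in striatum. Hdac2 went from -0.259 to 0.036 and from -0.225 to 0.039. Medians near 0 follow from the subtraction itself and from the choice of the list, so the values serve to show which genes departed from the rest.

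**Figure D5:**
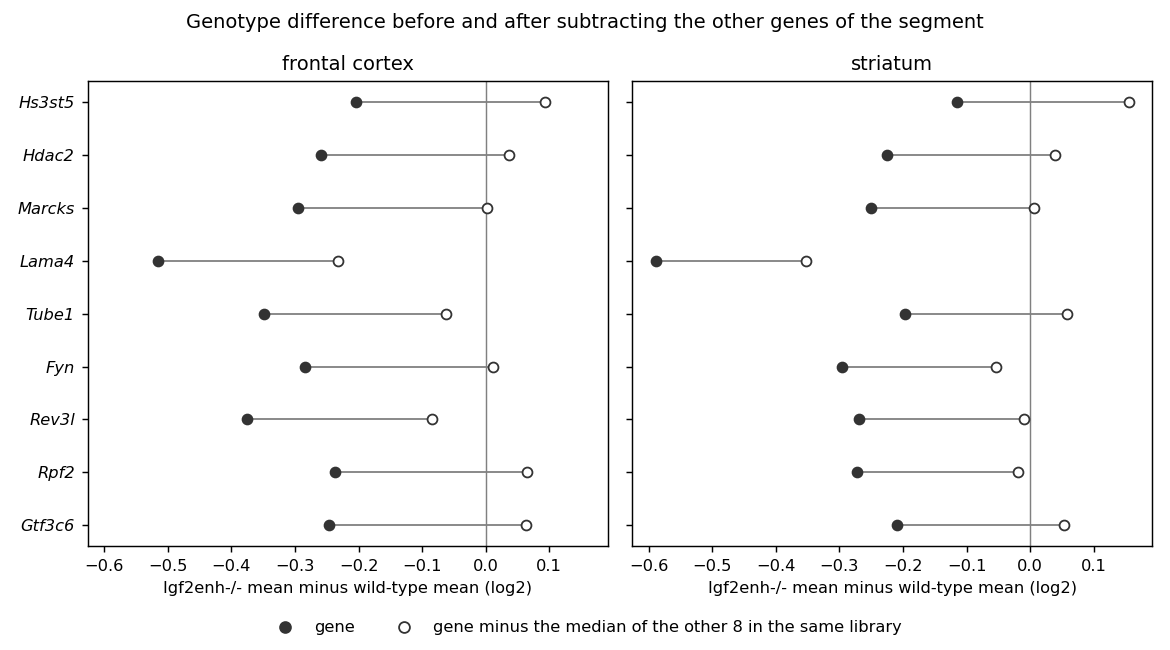
For each tested gene, the filled point is the Igf2enh-/- mean minus the wild-type mean of its deviation (horizontal axis, log2) and the open point is the same after subtraction of the median of the other 8 genes in each library. All filled points lie below 0, and the open points lie within 0.1 of 0 for 8 of 9 genes in frontal cortex and 7 of 9 in striatum, Lama4 being the farthest below 0 in both regions.

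Lama4 kept a difference in both regions. Hs3st5 was the other gene more than 0.1 from 0 after subtraction, in striatum, where its difference went from -0.115 to 0.155 and so turned in sign. In frontal cortex Lama4 was at 11.7, 12.1 and 12.6 CPM in wild-type females and at 14.5, 15.9 and 12.8 CPM in wild-type males. It was at 8.15, 9.80 and 9.05 CPM in Igf2enh-/- females and 9.04, 9.03 and 9.48 CPM in Igf2enh-/- males. The genotypes did not overlap, in females as in males. As the list was chosen by genotype differences, this separation is a description. After subtraction its wild-type mean was 0.029 ± 0.213 and its Igf2enh-/- mean -0.204 ± 0.093 (SD, n = 6 each), a difference of -0.233, about as large as the spread in wild-type. In striatum it was at 5.85, 5.85 and 6.61 CPM in wild-type females, and at 3.64, 4.83, 4.92 and 4.55 CPM in Igf2enh-/- females. Wild-type males had 15.1, 11.0, 7.87 and 5.70 CPM and Igf2enh-/- males 4.83, 5.17, 7.31 and 5.41 CPM, so that the genotypes overlapped in males through libraries 26 and 23.

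Lama4 is a gene of vessel walls, and its marker lists are given beside it. In frontal cortex the 5 endothelial markers summed to 139 to 166 CPM in wild-type males, 166 to 182 CPM in wild-type females, 159 to 183 CPM in Igf2enh-/- females and 153 to 186 CPM in Igf2enh-/- males. The 5 markers of pericytes and smooth muscle summed to 155 to 179 CPM, 174 to 187 CPM, 164 to 190 CPM and 162 to 184 CPM in the same order. The 6 meningeal fibroblast markers summed to 38.6 to 62.0 CPM, 51.7 to 92.7 CPM, 70.7 to 115 CPM and 60.2 to 74.4 CPM. No marker of these lists was at 0 in any library. In striatum the endothelial sums were 145 to 184 CPM, 148 to 174 CPM, 167 to 178 CPM and 158 to 185 CPM in the same order, and those of pericytes and smooth muscle 164 to 216 CPM, 168 to 197 CPM, 186 to 202 CPM and 149.7 to 193 CPM. The meningeal fibroblast sums of striatum were 17.2 to 23.5 CPM, 22.5 to 24.6 CPM, 22.0 to 47.0 CPM and 21.6 to 26.3 CPM. The part of these cell types in the Lama4 difference was not tested.

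The regions themselves differed for several of the genes, a comparison on which the list did not rest. Hs3st5 was at 4.77 to 10.0 CPM in frontal cortex and at 12.5 to 24.0 CPM in striatum, each scaled within its region, and was higher in striatum by 1.40 (log2, SE 0.12, edgeR quasi-likelihood adjusted p = 2.51e-11). Lama4 was lower in striatum by -0.81 (SE 0.11, adjusted p = 1.27e-07). Hdac2 and Rev3l were slightly higher in striatum, by 0.23 (SE 0.073, edgeR adjusted p = 0.00541) and 0.24 (SE 0.072, adjusted p = 0.00403), and Fyn was slightly lower, by -0.22 (SE 0.062, adjusted p = 0.00272). Marcks, Tube1, Rpf2 and Gtf3c6 lay between -0.07 and 0.08 and did not pass. This comparison called 77.7% of 13414 genes, so the 5 of 9 listed genes it called are a share below the background. Hs3st5 and Lama4 thus differed between the regions in opposite directions.

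Traf3ip2 was the one listed gene under the filter in both regions. It had 6 to 19 counts per library in frontal cortex and 8 to 30 in striatum. Its level was 0.441, 0.652 and 0.434 CPM in wild-type males of frontal cortex and between 0.227 and 0.725 CPM in the other libraries, which cover the same range. Its wild-type males did not stand apart at these counts. A further 7 matched genes of the stretch in frontal cortex and 8 in striatum were also under the filter, with 16 to 56 counts in all per frontal cortex library and 50 to 163 per striatal library. Their summed level stood at 0.119, 0.009 and 0.655 in frontal cortex of wild-type males 8, 10 and 12, and the highest value, 0.744, was that of Igf2enh-/- male 9. In striatum it stood at 1.01, -0.118, 0.223 and 0.233 in wild-type males 20, 22, 24 and 26, with the other groups between -0.673 and 0.241. The order of libraries was thus not that of the tested genes, library 20 standing highest with 163 counts and library 22 lying among the other groups.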

How the data were processed

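Gene counts of 27 libraries were analysed, 12 from frontal cortex and 15 from striatum. The authors ran Trim Galore 0.5.0 on the single-end reads and STAR against GRCm38 with the GENCODE vM15 gene models, and deposited raw counts per gene in a table for each region. The strand setting of the counting is not given in the sources used here. A symbol was found for 32688 of 52636 identifiers, and RefSeq coordinates (GRCm38.p6) for 25884.

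After removal of genes below 1 CPM in any library of a fit, counts were normalized by TMM and tested in edgeR 4.0.16 (R 4.3.3) by the quasi-likelihood F-test, with genotype and sex as terms, or a model of 4 groups for differences within a sex or genotype and for the interaction. Benjamini-Hochberg adjustment at 0.05 ran over all genes tested. SE is the log2 fold change divided by the square root of F. Regions were compared over all 27 libraries, treated as independent, since the labels do not tie them to mice. Differences between replicates may be partly technical. Levels used log2(CPM + 0.5), which understates the change of the least abundant genes.

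The listed genes, marker lists and tests were chosen with earlier results of these data known. The rule named the 10 listed genes, all tested genes between them, the 6 nearest tested genes on each side and the 10 nearest in course outside the list. Alternatives were the likelihood ratio test, DESeq2 1.42.0, its size factors, no filter, models without sex or with region alone, other added values, scaling and centring, and leaving out each library. Females alone and males alone were added after the data were seen. The scripts were tested on simulated counts. The count tables held 0 columns of other series.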

Additional observations from a re-analysis of the deposited data

Results flagged for a closer look

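Values that stood apart within a group were searched with Dixon's test at the 95% level over 77 sets of 4 to 8 libraries, of which 8 gave a value past the limit. Chance gives about 1 in 20 for independent sets, but these sets share libraries, and the segment level is a median over the same genes. The list was also chosen by differences between these libraries, so nothing is read from that count. The segment level of wild-type male library 26 in striatum was the lowest of its group by 0.944 of the range (-0.017, the next being 0.502), and Rpf2 and Gtf3c6 put the same library lowest by 0.839 and 0.838 of the range. Rpf2 in Igf2enh-/- male library 21 lay lowest by 0.900 of the range (-0.112, the next being -0.014), and the segment level of that library was the lowest of all 8 Igf2enh-/- striatal libraries by 0.553 of the range (-0.104, the next being -0.047). Tube1 in Igf2enh-/- female library 17 lay highest in its striatal group by 0.831 of the range (0.206, the next being 0.002). Hs3st5 in library 1 was the highest of 6 Igf2enh-/- frontal cortex libraries by 0.842 of the range (0.307, the next being 0.001), and Marcks in library 24 was the highest of 7 wild-type striatal libraries by 0.583 of the range (0.639, the next being 0.256).

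Genotype differences in frontal cortex differed between males and females, by the interaction term, for Hdac2 (-0.681, from 0.080 in females and -0.600 in males), Marcks (-0.680, from 0.044 and -0.636) and Fyn (-0.498, from -0.035 and -0.533). These genes were listed with such differences known.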

How the results depend on the processing

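No paired analysis was possible because the library numbers in the labels are not shared between groups. In every leave-one-out fit, all 9 tested genes were lower in Igf2enh-/- mice in both regions, and their median ranged from -0.33 to -0.25 in frontal cortex and from -0.27 to -0.18 in striatum. The number of calls depended on the test, the filter, the sex and the libraries used. Fits without a filter tested more genes, so their counts cannot be compared with the others as shares. For genotype in frontal cortex, genes called were 53 (1 listed) as reported, 232 (4) by the likelihood ratio test, 242 (3) by DESeq2, 459 (7) without a filter, 1 (0) in females alone and 20 (6) in males alone. For genotype in striatum they were 5 as reported, 56 by the likelihood ratio test, 112 by DESeq2, 10 without a filter, 3 without the sex term and 1 in females alone. For sex in frontal cortex they were 6 as reported, 28 by the likelihood ratio test, 21 by DESeq2 and 185 (5 listed) without a filter. For sex in striatum they were 6, 12, 16 and 14 in that order. For the interaction they were 12 (6 listed), 9 (5) and 310 (6) in frontal cortex by the same 3 alternatives, and 1 by the likelihood ratio test and 2 by DESeq2 in striatum. The causes were not tested.

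Leaving out 1 library gave 8 calls (without wild-type male 10) to 96 calls (without Igf2enh-/- female 1) for genotype in frontal cortex, of which 1 to 2 were listed, and 3 to 8 in striatum. It gave 2 to 5 calls for the interaction in frontal cortex, 2 to 5 of them listed, and 0 to 2 in striatum, 0 to 2 of them listed, the highest without wild-type male 26. The regional difference of Marcks ranged from -0.0191 to 0.0398 and that of Gtf3c6 from -0.0194 to 0.0283 when 1 library was left out, and that of Gtf3c6 was -0.0012 with region alone, so neither has a firm sign. Centring on the mean in place of the median moved the level of libraries 2, 3, 5, 6, 7 and 11 to -0.106, -0.152, -0.162, -0.171, -0.164 and -0.161, and of 16, 24 and 27 to -0.0787, 0.454 and -0.116, as its construction does where some libraries are high. Traf3ip2, with 6 to 30 counts per library, was under the filter and has no fit among the results reported.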
